A study of Mus musculus with 99 samples.

Results

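Of 99 male mouse hearts, each from a different strain, 20 gave arrays in which Alb, the gene of the plasma protein albumin, was at 8 log2 units or more, and 62 gave arrays in which it was under 6. Alb is made by hepatocytes, so the first class is called here the arrays with liver transcripts and the second the arrays without. The 17 arrays with Alb between these levels belong to neither class. The arrays were selected on the measured Alb level, so Alb is described with no test. Other hepatocyte genes vary with Alb across these arrays, so their differences and the counts of those passing the threshold are descriptions and no evidence of their own, and no p-value is printed for them. The mice were males on a chow diet with a 12 h light and dark cycle and no treatment, 16 weeks old by the protocol in the labels, although an age label goes up by 1 week from sample to sample, from 16 to 113 weeks. Whole-heart RNA of each strain was hybridised once to an Affymetrix HT_MG-430A array, so no strain has a replicate, and the values are log2 levels in which about 3 is the floor. Strains, closely related ones included, stand for the replicates of a class, and p-values rest on the spread between single arrays of different strains. In that spread, differences of strain, mouse and array cannot be told apart.

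The class with liver transcripts held CAST/EiJ, a wild-derived inbred strain, RIIIS/J from the 28 classical inbred strains, and 18 recombinant inbred strains, which carry fixed mixtures of a pair of parental genomes. Among the recombinant panels, 6 of 30 BXD, 5 of 15 AXB, 5 of 13 BXA and 2 of 11 BXH strains were in this class. The class without held 16 BXD, 8 AXB, 5 BXA, 8 BXH and 24 classical inbred strains and B6cC3-1/KccJ. The 4 parents of these panels were all in it, with Alb at 3.36 in C57BL/6J, 4.09 in DBA/2J, 3.32 in A/J and 3.31 in C3H/HeJ. The closely related AXB19 strains were divided between the classes, with Alb at 9.61 in AXB19/PgnJ and 8.14 in AXB19a/PgnJ, against 3.38 in AXB19b/PgnJ. The labels of BXD29-Tlr4<lps-2J>/J and BXD24/TyJ-Cep290<rd16>/J name a Tlr4 and a Cep290 allele. Both strains were in the class without liver transcripts, and so was BXD24/TyJ.

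Hepatocytes are the main cells of the liver and secrete most proteins of blood plasma: albumin, transport proteins, clotting and complement factors and apolipoproteins. They also hold the urea cycle, the breakdown of amino acids, bile acid synthesis and the cytochrome P450 enzymes that oxidise drugs, steroids and fatty acids. The liver further contains Kupffer cells, which are its resident macrophages, sinusoidal endothelium, stellate cells and bile ducts, while the heart muscle is built from sarcomere proteins such as Myl2, a ventricular myosin light chain. In bulk RNA, fewer cells of a type and less RNA per cell cannot be told apart.

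The level of Alb spanned a wide range among the arrays with liver transcripts. It was 13.09 in CAST/EiJ. Among the recombinant strains it was highest in BXD12/TyJ at 12.35, BXA8/PgnJ at 11.89, BXD42/TyJ at 11.79, AXB13/PgnJ at 11.64, BXA16/PgnJ at 11.22 and AXB10/PgnJ at 11.07. These 6, with Alb at 11 or more, are called the upper recombinant arrays. BXH14/TyJ at 10.26, AXB19/PgnJ at 9.61, BXA13/PgnJ at 9.37 and AXB4/PgnJ at 9.06 followed, and the other 9 lay between 8.02 and 8.88. The arrays just inside the upper limit were BXA26/PgnJ at 8.02 and BXD39/TyJ at 8.03, and those just outside were BXD8/TyJ at 7.62 and BXD6/TyJ at 7.61. At the lower limit, I/LnJ at 5.95 and BXD40/TyJ at 5.76 were just inside the class without, and BXH7/TyJ at 6.08 and CBA/J at 6.14 just outside.

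Other liver genes followed nearly the same order of arrays. Lists of hepatocyte genes held 196 genes other than Alb on the array, and for each array the genes above the highest of the 62 arrays without liver transcripts were counted. CAST/EiJ had 155 such genes, and the upper recombinant arrays had 131 in BXD12/TyJ, 128 in BXA8/PgnJ, 121 in AXB13/PgnJ, 120 in BXD42/TyJ, 112 in BXA16/PgnJ and 105 in AXB10/PgnJ. The other 13 arrays with liver transcripts had 17 to 66, and the 17 arrays between the levels had 4 to 32. Among the 11528 remaining genes, the share above the highest array without was 0.616% to 7.16% in the class with liver transcripts, with CAST/EiJ the highest at 825 genes, against 8.67% to 79.1% for the liver genes. The plot of Alb and of these counts shows both.

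**Figure D1:**
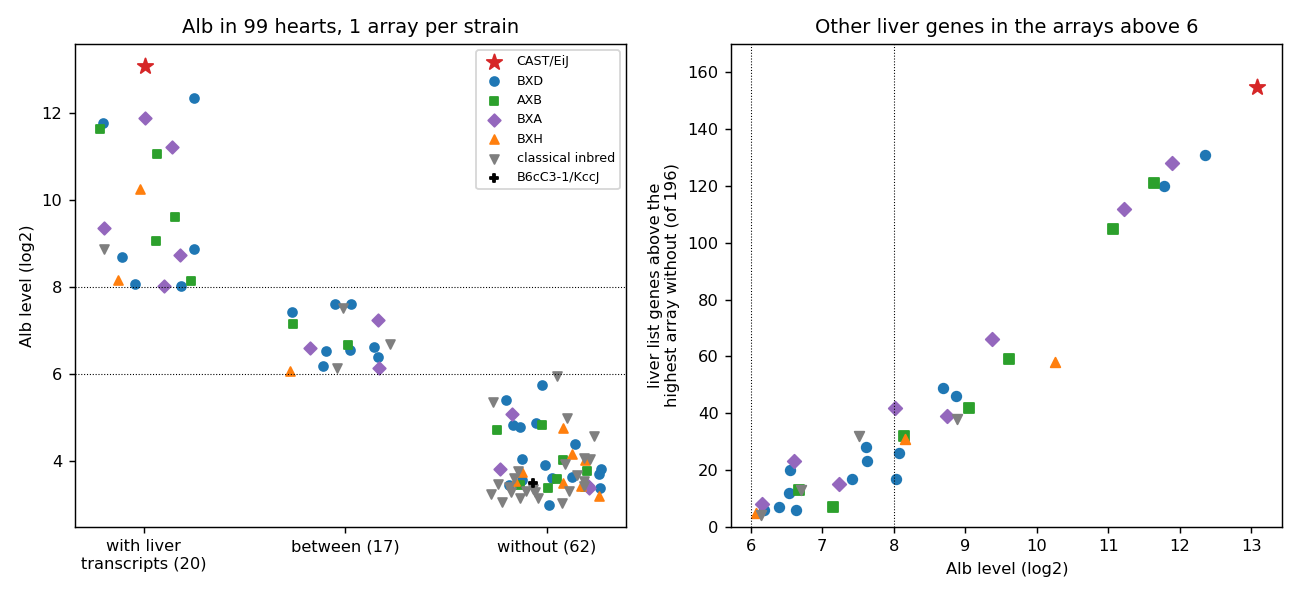
Left, the Alb level (log2) of each of the 99 arrays by class, with the panel as symbol and dotted lines at 8 and 6. Right, Alb (log2) against the number of the 196 liver genes above the highest array without liver transcripts, for the 20 arrays with them and the 17 between, in which CAST/EiJ has 155 and the upper recombinant arrays 105 to 131.

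Some arrays carried transcripts of other organs. A list counted as present where its mean was more than 2 log2 units above its median array. Airway genes such as Scgb1a1, the secretoglobin of airway club cells, passed in 6 of 20 arrays with liver transcripts (CAST/EiJ, AXB13/PgnJ, AXB10/PgnJ, BXH14/TyJ, BXD13/TyJ and BXH9/TyJ), against 13 of 62 without. Fast skeletal muscle passed in 2 of 20 (CAST/EiJ and AXB13/PgnJ), against 6 of 62, and thymus in 1 of 20 (AXB19/PgnJ), against 1 of 62. In all, 7 of 20 arrays with liver transcripts and 17 of 62 without held such a list. An array that passed for no list can still hold such transcripts. Scgb1a1 was at 9.22 in BXA16/PgnJ and 8.14 in BXD12/TyJ, and at 9.90 in A/J of the class without, and none of these arrays passed. The mean of the airway list ranged from 3.30 to 7.74 in arrays with liver transcripts and from 3.23 to 9.02 in arrays without. The difference of the Gapdh 3' and 5' control probe sets, a sign of RNA length, had medians of -0.29 in arrays with liver transcripts and -0.33 in arrays without, with ranges that overlapped. The numbers that serve as sample titles, whose meaning the labels do not give, were lower in AXB arrays with liver transcripts (median 502, 487 to 652, 5 arrays) than in AXB arrays without (median 662.5, 562 to 683, 8 arrays), with an exact two-sided permutation p of 0.0124, or 0.0373 adjusted over 3 panels. The same test gave p = 0.0714 (adjusted 0.107) in BXA and p = 0.717 (adjusted 0.717) in BXD, and the part of whatever these numbers stand for was not tested beyond a fit with the number as a covariate, which called 216 genes higher and 18 lower. The age label rises in the same sample order as the title number, so a difference in title number cannot be told apart from one in labelled age.

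Across all genes, the comparison of the classes by limma called 220 of 11724 genes higher in arrays with liver transcripts, 1.88% of those tested, and 24 lower, 0.205%, or 244 (2.08%) in either direction (Benjamini-Hochberg adjusted p under 0.05). A call means only that the adjusted p was under this threshold; for hepatocyte genes, selected together with Alb, the counts describe the split of the arrays. The genes called higher were mostly hepatocyte genes: 128 of the 220 were in the hepatocyte or liver zone lists, 2 in other lists and 90 in none. Of the 66 genes called higher by at least 1 log2 unit, 60 were in the hepatocyte or liver zone lists, and no gene was called lower by that much. The median of the class with liver transcripts lay above the highest array without for 59 genes, 0.503% of all, of which 51 were in the liver lists. Without CAST/EiJ 199 genes (1.7%) were called higher and 16 lower, of which 193 and 12 were among the 220 and 24. With the panel as a block and without CAST/EiJ these were 182 (1.55%) and 10 (0.0853%), of which 178 and 6 were among them. Without the arrays of either class that passed for a list of another organ (7 with and 17 without liver transcripts) 177 genes (1.51%) were called higher. Without the 7 arrays with Alb at 11 or more, CAST/EiJ among them, 77 were called higher and 5 lower. With the related AXB19 arrays and BXD24 arrays averaged where they shared a class, 224 were called higher and 22 lower. With a spread of its own for each class, 214 were called higher and 13 lower.

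Carriers and other secreted plasma proteins were higher in the arrays with liver transcripts. Of 23 such genes on the array other than Alb, 19 were called higher and 0 lower, and the median difference was 1.10 log2 units, against -0.01 over all genes. It was 0.97 without CAST/EiJ and 0.31 without the 7 arrays with Alb at 11 or more. Ttr, the thyroid hormone and retinol carrier transthyretin, had levels of 4.24, 5.63 and 10.43 (lowest, median and highest) in the 20 arrays with liver transcripts, against 3.12, 3.54 and 3.98 in the 62 without. The classes did not overlap, and the difference was 3.11 ± 0.27 (SE), or 8.63-fold. Each SE given here comes from the limma spread pooled over both classes. It understates the uncertainty of genes that, like Ttr, varied far more among the 20 arrays with liver transcripts than among the 62 without. Apoh, which encodes beta-2-glycoprotein I, was 3.00 ± 0.25 higher, with 19 of 20 arrays above every array without. Hpx, the haem carrier hemopexin, was 2.54 ± 0.28 higher, with 18 of 20 above, and Pzp, a broad protease inhibitor of plasma, 2.53 ± 0.25, with 18 of 20 above. Rbp4, the retinol carrier, overlapped more, since the highest array without was at 5.58, and 12 of 20 arrays with liver transcripts were above it. Ambp, the precursor of alpha-1-microglobulin and bikunin, was also above in 12 of 20.

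Apolipoproteins were among the most widely separated groups. Of 13 genes of apolipoproteins and lipid export, 12 were called higher, with a median difference of 1.26 (1.08 without CAST/EiJ). Apoa1, the main protein of high density lipoprotein, had levels of 5.57, 7.98 and 12.40 in arrays with liver transcripts, against 2.97, 3.40 and 4.50 in arrays without. All 20 arrays with liver transcripts lay above all 62 without, and the difference was 5.09 ± 0.24 or 34.1-fold (4.89 without CAST/EiJ). Apoa2, its partner in that particle, differed by 5.04 ± 0.25, with 6.90, 8.90 and 12.55 in arrays with liver transcripts, against 3.93, 4.34 and 6.63 in arrays without, and did not overlap either. Apoc3, an inhibitor of triglyceride clearance, differed by 3.13 ± 0.30 and Fabp1, the liver fatty acid binding protein, by 3.08 ± 0.28, with 19 and 20 of 20 arrays above every array without. Apoc1 overlapped, with 7 of 20 above, because its level reached 6.43 in an array without liver transcripts.

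The Serpina1 genes encode alpha-1-antitrypsins, inhibitors of neutrophil elastase, and the mouse has several near-identical copies. All 4 copies on the array were called higher. Serpina1c had levels of 6.58, 8.75 and 11.74 in arrays with liver transcripts, against 2.73, 3.28 and 5.62 in arrays without, and differed by 5.68 ± 0.25, or 51.3-fold, with no overlap. Serpina1a differed by 2.38 ± 0.26 with no overlap, and Serpina1b by 3.89 ± 0.41 with an overlap, since it reached 7.77 in the class without and 8 of 20 arrays were above that. Serpina1d was near the floor in both classes, with medians of 3.29 with and 3.07 without liver transcripts. The probe sets of Serpina1a, Serpina1b and Serpina1d carry the suffix that marks probes shared with other transcripts, so the copies are uncertain as single genes.

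Clotting factors came next, with 14 of 16 called higher and a median difference of 0.56 (0.45 without CAST/EiJ). The 3 chains of fibrinogen, the protein that forms the clot, were all higher: Fgb differed by 2.63 ± 0.28, Fgg by 2.31 ± 0.26 and Fga by 2.16 ± 0.26. Fgb was at 10.53 in CAST/EiJ, at 8.69 in BXD12/TyJ, 8.02 in BXA8/PgnJ, 8.86 in BXD42/TyJ, 8.63 in AXB13/PgnJ, 8.11 in BXA16/PgnJ and 7.62 in AXB10/PgnJ, and at 3.14 in the median array without liver transcripts, where the highest was 3.46. Fga was at 10.38 in CAST/EiJ and at 6.51 to 7.87 in the upper recombinant arrays, so for both chains these 7 arrays were above all others of the class. Serpinc1, the thrombin inhibitor antithrombin, differed by 2.25 ± 0.26, Plg, the precursor of plasmin, by 2.02 ± 0.24 and F2, prothrombin, by 1.57 ± 0.21.

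The promoters of Fga and Fgb, neighbouring genes that were high in the same 7 arrays, are shown from 250 bases before to 50 after the start given by RefSeq, on build GRCm38.p6 and on each gene's own strand. Capitals mark GTTAAT, the half-site of the hepatocyte factor HNF1, or its reverse complement, and TTGNNCAA, a pattern of C/EBP factors that reads the same on both strands. GTTAAT was searched on both strands.
Fga (chr3:83025903-83026202, plus strand): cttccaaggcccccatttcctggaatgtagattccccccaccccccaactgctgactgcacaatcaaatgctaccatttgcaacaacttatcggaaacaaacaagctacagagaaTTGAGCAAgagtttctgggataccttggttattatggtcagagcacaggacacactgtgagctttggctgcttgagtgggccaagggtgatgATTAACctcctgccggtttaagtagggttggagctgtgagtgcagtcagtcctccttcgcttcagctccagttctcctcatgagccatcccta
Fgb (chr3:83049814-83050113, minus strand): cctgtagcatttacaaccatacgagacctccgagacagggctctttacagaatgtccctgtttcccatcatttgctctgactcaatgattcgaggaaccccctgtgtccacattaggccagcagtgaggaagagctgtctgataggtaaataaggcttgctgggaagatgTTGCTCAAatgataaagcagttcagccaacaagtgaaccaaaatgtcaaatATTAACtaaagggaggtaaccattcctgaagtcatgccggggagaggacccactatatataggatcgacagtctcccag
Each promoter held 1 GTTAAT and 1 TTGNNCAA, and the patterns did not overlap. GTTAAT was in 7.10% of the 32851 promoters of the table and in 39 of 196 promoters of the liver genes, 19.9%, and TTGNNCAA in 6.40% and in 28 of 196, 14.3%. These 196 promoters belong to 167 of the 197 genes looked up, Alb included, and some genes have several. A match describes the letters and is no measure of binding.

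Complement, acute phase and major urinary protein genes were less uniform. Of 13 complement genes 8 were called higher, with a median difference of 0.45, or 0.28 without CAST/EiJ. C9, a component of the membrane attack complex, differed by 1.20 ± 0.16 and Cfi, a protease that inactivates C3b, by 0.96 ± 0.16. Of 14 acute phase genes, which the liver makes in inflammation, 7 were called higher, with a median difference of 0.28. Hp, the haemoglobin carrier haptoglobin, had levels of 4.92, 6.56 and 10.68 in arrays with liver transcripts, against 3.87, 5.42 and 10.03 in arrays without. The ranges thus overlapped almost fully, although the median was higher with liver transcripts. Hp was at 10.68 in CAST/EiJ, 8.60 in BXD12/TyJ and 8.09 to 8.80 in the other 5 upper recombinant arrays. Saa1, a serum amyloid of strong inflammation, stayed near the floor in most arrays, with a median of 3.37 with and 3.22 without liver transcripts. It was at 6.90 in AXB10/PgnJ, 5.88 in AXB13/PgnJ and 5.33 in CAST/EiJ. Mup3, a pheromone-binding urinary protein made by male liver, differed by 3.60 ± 0.27, or 12.2-fold, with 3.24, 6.36 and 10.81 in arrays with liver transcripts, against 2.78, 3.10 and 3.89 in arrays without. In the lowest arrays of the class, BXD39/TyJ at 3.24 and BXA26/PgnJ at 3.55, it overlapped the class without.

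Enzymes of the urea cycle and of amino acid breakdown were higher as well, 24 of 28 by call, with a median difference of 0.59 (0.41 without CAST/EiJ). Bhmt, which remethylates homocysteine, had levels of 4.44, 6.49 and 10.83 in arrays with liver transcripts, against 2.99, 3.34 and 3.92 in arrays without, with no overlap and a difference of 3.96 ± 0.25 or 15.6-fold. Hpd, an enzyme of tyrosine breakdown, differed by 2.67 ± 0.26 with no overlap. Cps1, the first enzyme of the urea cycle, was at 11.49 in CAST/EiJ, at 8.69 in BXD12/TyJ, 8.38 in BXA8/PgnJ, 8.04 in BXD42/TyJ, 8.25 in AXB13/PgnJ, 7.49 in BXA16/PgnJ and 7.93 in AXB10/PgnJ, and at 3.08 in the median array without. The class with liver transcripts reached down to 3.27 for this gene in AXB19a/PgnJ, and 19 of 20 arrays were above every array without. Arg1, which splits arginine to urea, differed by 2.37 ± 0.30 (2.05 without CAST/EiJ), and Ass1, which makes argininosuccinate, by 1.87 ± 0.24 (1.60). Gnmt, which uses S-adenosylmethionine, differed by 1.86 ± 0.23, with medians of 6.14 in arrays with liver transcripts and 4.90 in arrays without.

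Among enzymes of drug, steroid and fatty acid oxidation and conjugation, 22 of 40 were called higher, with a median difference of 0.35. Cyp3a11, the main drug-oxidising enzyme of mouse liver, had levels of 3.95, 6.60 and 10.22 in arrays with liver transcripts, against 2.72, 3.04 and 3.84 in arrays without, with no overlap and a difference of 4.03 ± 0.25 or 16.3-fold. It was lowest in RIIIS/J at 3.95 and BXH9/TyJ at 4.26. Cyp4a10, a fatty acid hydroxylase, differed by 2.87 ± 0.26 with no overlap. Cyp2e1, the ethanol-oxidising enzyme, overlapped widely, with 4.25, 8.002 and 10.75 in arrays with liver transcripts, against 3.28, 6.73 and 9.66 in arrays without, and Cyp2a5, which oxidises coumarin, was at up to 8.89 in an array without liver transcripts. Cyp2e1 reached 8.89 in BXA26/PgnJ, where Alb was lowest of the class. Cyp2f2, an enzyme of liver and of airway club cells, was at 11.06 in the highest array without, and in BXD13/TyJ, BXH9/TyJ and BXH14/TyJ it was at 9.90, 9.17 and 8.81. Scgb1a1 in the same arrays was at 12.15, 11.75 and 11.31, and the part of airway transcripts in the Cyp2f2 level was not tested.

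Bile acid genes had 8 of 17 called higher and genes of liver sugar metabolism 5 of 13, with median differences of 0.27 and 0.22. Without CAST/EiJ these were 7 and 4 genes, with medians of 0.16 and 0.12. Slc27a5, the bile acid coenzyme A ligase, differed by 1.27 ± 0.20, and Slc10a1, the sodium-dependent bile acid importer, by 1.19 ± 0.18. Cyp7a1, the rate-limiting enzyme of bile acid synthesis, differed by 0.48 ± 0.11, and by 0.31 without CAST/EiJ. It was at 6.84 in CAST/EiJ. Fbp1, an enzyme of glucose synthesis, differed by 1.99 ± 0.25, with 19 of 20 arrays above every array without. Transcription factors of hepatocytes had the lowest median of the 12 hepatocyte lists, with 2 of 13 called higher and a median of 0.03 (3 called and a median of 0.01 without CAST/EiJ). Nr1h4, the bile acid receptor, differed by 0.26 ± 0.05 and Creb3l3, a membrane-bound factor of liver, by 0.33 ± 0.10 (0.17 without CAST/EiJ), while Cebpa had medians of 4.45 in arrays with liver transcripts and 4.42 in arrays without. By position in the liver lobule, 7 of 12 periportal genes and 5 of 11 pericentral genes were called higher, beside 1.88% of all genes. Their median differences were 0.68 and 0.13, or 0.46 and 0.13 without CAST/EiJ.

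**Figure D2:**
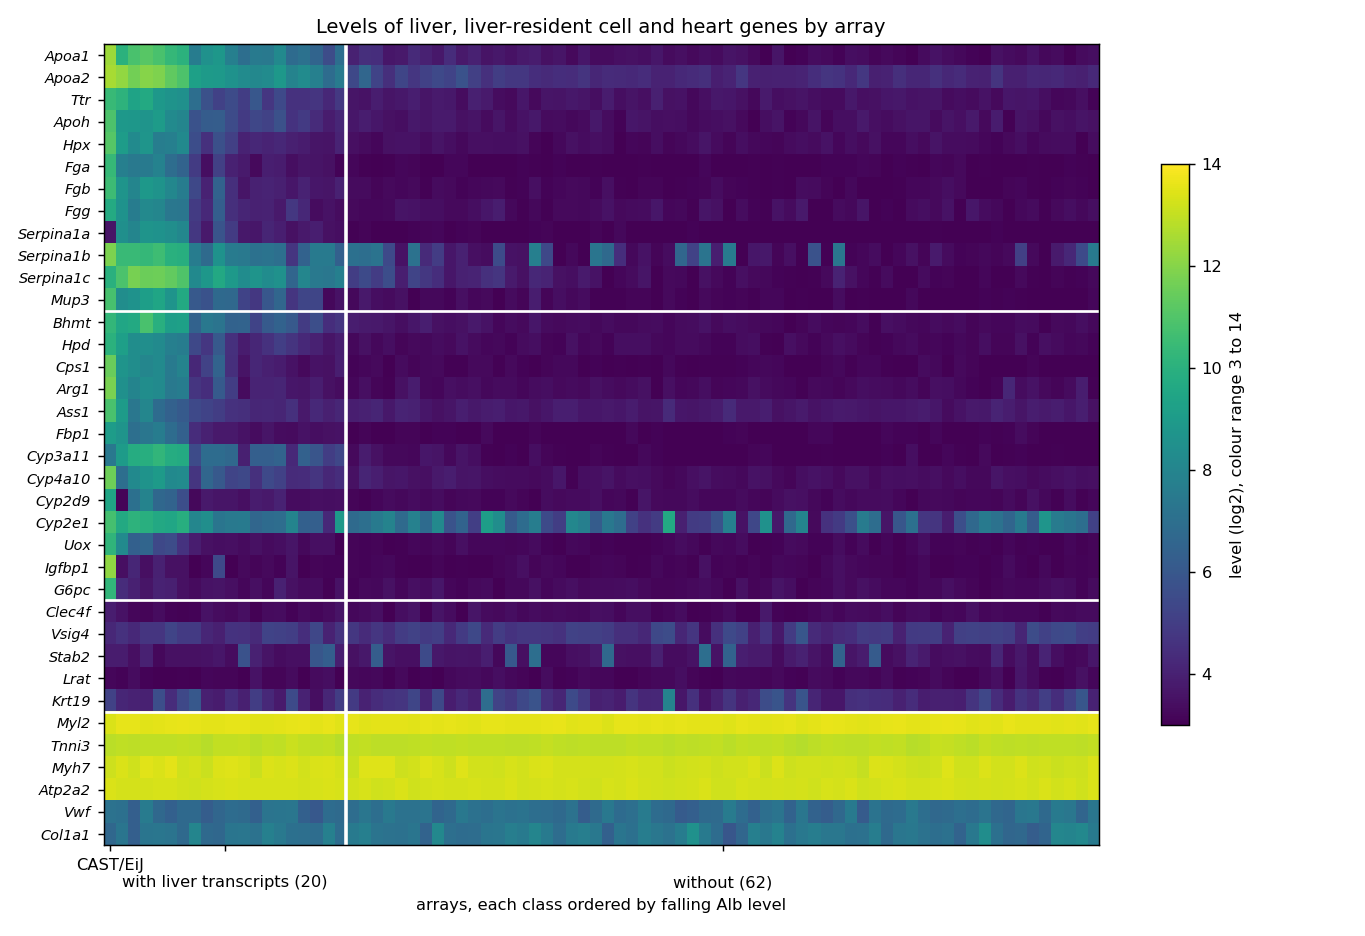
Levels (log2, colour from 3 to 14) of plasma protein genes, liver enzymes, markers of other liver cells and heart genes (rows, separated by white lines) in the 20 arrays with liver transcripts and, right of the white line, the 62 without, each class ordered by falling Alb. CAST/EiJ is the first column, most liver rows fall from left to right within the first class, and the muscle genes among the heart rows stay near the top of the colour range in both.

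Of the 90 genes called higher that belonged to no list, the 20 with the largest differences ran from 0.68 to 2.45. They included enzymes: Acaa1b, a peroxisomal thiolase, differed by 2.45 ± 0.27, Uox, the urate oxidase, by 1.43 ± 0.24, Dmgdh, the dimethylglycine dehydrogenase, by 0.77 ± 0.13 and Ahcy, which splits S-adenosylhomocysteine, by 0.69 ± 0.12. Uox was at 10.21 in CAST/EiJ and at 8.25 in BXD12/TyJ, 6.35 in BXA8/PgnJ, 6.59 in BXD42/TyJ, 5.39 in AXB13/PgnJ, 5.55 in BXA16/PgnJ and 4.63 in AXB10/PgnJ, and at 3.45 in the highest array without. Secreted proteins included Pon1, a paraoxonase of high density lipoprotein, with 1.44 ± 0.24, and Fgl1, a fibrinogen-like protein, with 0.84 ± 0.18 (0.56 without CAST/EiJ). Ttpa, the vitamin E transfer protein, differed by 0.99 ± 0.17 and Rdh7, a retinol dehydrogenase, by 1.32 ± 0.16. All 20 were called in each fit that left out 1 array with liver transcripts, and 8 without the 7 arrays with Alb at 11 or more.

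Of 32 markers of the other cells of the liver outside the hepatocyte lists, limma called 0, beside 2.08% of all genes, so the count is near the background. An unadjusted p under 0.05 was found for 3 of them, and the median difference was -0.01. Among 7 Kupffer cell genes the median difference was -0.02. Clec4f, the lectin that marks these cells in mouse, had medians of 3.31 with and 3.27 without liver transcripts and was at 3.89 in CAST/EiJ, 3.54 in BXD12/TyJ and 3.76 in the highest array without. Cd5l, a secreted macrophage protein, was at 4.29 in CAST/EiJ, against a highest level of 4.54 in the class without. Among 10 sinusoidal endothelial genes the median was -0.02, among 7 stellate cell genes -0.02 and among 9 bile duct genes 0.03. Krt18, a keratin of hepatocytes and of ducts, had the largest of these differences at 0.55 ± 0.18 (limma adjusted p = 0.122) and was highest in AXB19/PgnJ at 7.73. Krt19, the duct keratin, had medians of 4.22 with and 4.43 without.

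Heart genes differed little in level between the classes. Of 88 genes in 8 heart lists, limma called 0, beside 2.08% of all genes, which is near the background for a list of this size. An unadjusted p under 0.05 was found for 6 of the 88, beside 1172 of all 11724 genes, with a median difference of -0.01 and single differences from -0.21 to 0.22. Myl2 had levels of 13.39, 13.57 and 13.65 in arrays with liver transcripts, against 13.44, 13.55 and 13.65 in arrays without, and Tnni3, cardiac troponin I, of 12.82, 12.94 and 13.11 in arrays with liver transcripts, against 12.79, 12.94 and 13.07 in arrays without. The median was 0.00 for the sarcomere, 0.00 for oxidative phosphorylation, -0.03 for calcium handling and conduction, -0.05 for endothelium and -0.08 for fibroblast matrix. The largest differences in these lists were Cpt1a at 0.22 ± 0.07 and Cldn5, an endothelial junction protein, at -0.21 ± 0.16 (limma adjusted p = 0.742). Cpt1a, the gate of mitochondrial fatty acid import, is a gene of hepatocytes as well, so no p-value is printed for it. Ndufs4, a complex I subunit, had the smallest adjusted p at 0.0694 and differed by 0.11 ± 0.03. Blood, interferon, immediate early, clock and glucocorticoid lists also had 0 called genes, beside 2.08% of all genes, which is near the background for lists of this size. Atf3, a stress-induced factor, differed by -0.56 ± 0.25 (adjusted p = 0.393), and Dbp, a clock output gene, by 0.55 ± 0.32 (adjusted p = 0.612).

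**Figure D3:**
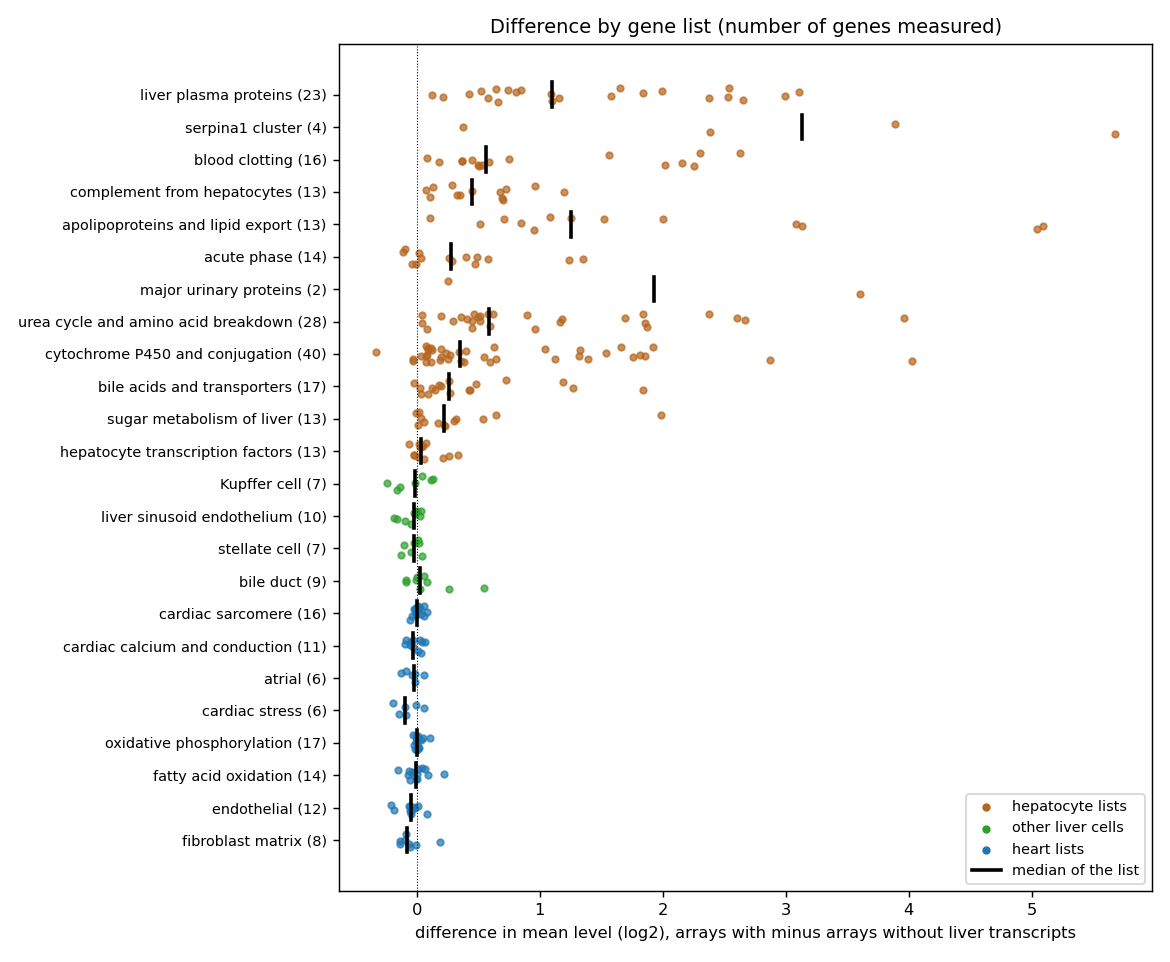
Difference in mean level (log2, arrays with minus arrays without liver transcripts) of each gene (points) in 12 hepatocyte lists, 4 lists of other liver cells and 8 heart lists, with the number of genes measured in brackets and the list median as a bar. Hepatocyte lists reach above 5, and the other lists lie around 0.

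Of 260 genes of the lists other than hepatocyte and zone lists, 2 were called higher and 0 lower. Over all genes tested these shares were 1.88% and 0.205%, so the counts are near the background. Dio1, a deiodinase of thyroid hormone found in thyroid, liver and kidney, differed by 0.28 ± 0.05, with 4.15 in both BXD12/TyJ and BXD42/TyJ and 3.59 in the highest array without. Fabp2, the intestinal fatty acid binding protein, differed by 0.41 ± 0.08 and was at 5.50 in CAST/EiJ. Both genes were highest in arrays with Alb at 11 or more. Their calls therefore describe the split of the arrays, and no p-value is printed for them. Neither was called without the 7 arrays with Alb at 11 or more. In airway genes the median difference was 0.36, or 0.16 without CAST/EiJ, which carried airway markers, and Bpifa1, a secreted airway protein, differed by 1.07 ± 0.80 (adjusted p = 0.728).

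The 24 genes called lower belonged to none of the lists, and their differences were small. Cuedc1, which encodes a ubiquitin-binding CUE domain protein, had levels of 5.26, 6.10 and 8.15 in arrays with liver transcripts, against 5.06, 7.62 and 8.32 in arrays without, and differed by -0.91 ± 0.23 (adjusted p = 0.00882, or 0.0543 with the panel as a block and without CAST/EiJ) by limma. Within the class it spread widely, from 5.26 in BXA26/PgnJ to 8.15 in BXA16/PgnJ, and the classes overlapped. Among the panel parents, all in the class without, Cuedc1 was at 5.44 in C57BL/6J, 7.55 in A/J, 7.96 in C3H/HeJ and 8.10 in DBA/2J. The part of this parental difference in the class difference was not tested beyond the fit with the panel as a block. Hbegf, an EGF-like growth factor, fell by limma with a difference of -0.61 ± 0.15 (adjusted p = 0.00904, or 0.0543 with the panel as a block and without CAST/EiJ). Vamp2, a SNARE protein of vesicle fusion, had a difference of -0.30 ± 0.06 (adjusted p = 0.00102, or 0.0452 with the panel as a block and without CAST/EiJ), Asb11, a ubiquitin ligase adaptor of muscle, of -0.28 ± 0.06 (adjusted p = 0.00363, or 0.0152 with the panel as a block and without CAST/EiJ), and Fstl3, which binds activin and myostatin, of -0.28 ± 0.07 (adjusted p = 0.0052, or 0.0441 with the panel as a block and without CAST/EiJ). All 20 arrays with liver transcripts were within or below the range of those without for these 5 genes. Within the recombinant panels alone, Vamp2 was called and the other 4 were not. Of the 20 largest decreases, 8 were called in every fit that left out 1 array with liver transcripts and 11 without CAST/EiJ. Without the arrays of either class that passed for a list of another organ, 4 were called.

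CAST/EiJ had the highest Alb, and its liver genes stood in other proportions than in the 18 recombinant arrays with liver transcripts. To compare proportions, the mean of the liver plasma protein list was subtracted in each array. That mean was 9.02 in CAST/EiJ, 6.07 to 6.99 in the upper recombinant arrays and 4.04 to 4.89 in the other arrays of the class. After this step 17 of 196 liver genes were above all 18 recombinant arrays in CAST/EiJ and 102 below, which includes genes that were near the floor or that the heart expresses itself. With the mean over all liver lists instead, 58 were above and 75 below, and with no subtraction 135 were above and 2 below, so the balance of the sides depends on the scale. Against the 6 upper recombinant arrays, with the first subtraction, 31 were above and 116 below. CAST/EiJ is 1 array, so these are values without a test, and probe sequences were not compared with the CAST/EiJ genome.

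The gene farthest above was Igfbp1, a binding protein of insulin-like growth factors whose hepatic transcript is known to rise on fasting. It was at 12.17 in CAST/EiJ, against 3.44 in BXD12/TyJ, 4.20 in BXA8/PgnJ, 3.47 in BXD42/TyJ, 3.999 in AXB13/PgnJ, 3.50 in BXA16/PgnJ and 3.51 in AXB10/PgnJ, and 3.13 in the median array without liver transcripts. The upper recombinant arrays were thus close to the class without, whose highest array was at 3.51, and the highest recombinant array was BXA13/PgnJ at 5.44. G6pc, glucose-6-phosphatase, which releases glucose from the liver, was at 10.22 in CAST/EiJ and at 3.08 to 4.42 in the 18 recombinant arrays. Tat, the tyrosine aminotransferase known for its induction by glucocorticoids, was at 11.51, against 3.59 to 6.57, and Apoa4 at 10.71, against 3.28 to 5.71. Igfbp2, another binding protein of growth factors, was at 10.08 in CAST/EiJ, against 3.05 to 6.08, and Arg1 at 11.78, against 3.36 to 8.50. In each of these 6 genes CAST/EiJ lay above all recombinant arrays with or without the subtraction.

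The promoters of Igfbp1 and G6pc, which are among the genes farthest above in CAST/EiJ, both held a longer HNF1 pattern, GTTAAT followed by any base and ATT. They are shown as for fibrinogen, with this pattern (searched on both strands, and containing GTTAAT) and TTGNNCAA in capitals; Igfbp1 held no TTGNNCAA.
Igfbp1 (chr11:7197537-7197836, plus strand): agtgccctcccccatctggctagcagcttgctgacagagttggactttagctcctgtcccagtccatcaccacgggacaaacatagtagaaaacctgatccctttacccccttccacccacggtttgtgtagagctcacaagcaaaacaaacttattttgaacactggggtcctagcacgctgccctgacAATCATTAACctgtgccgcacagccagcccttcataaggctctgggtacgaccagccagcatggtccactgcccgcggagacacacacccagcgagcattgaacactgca
G6pc (chr11:101367466-101367765, plus strand): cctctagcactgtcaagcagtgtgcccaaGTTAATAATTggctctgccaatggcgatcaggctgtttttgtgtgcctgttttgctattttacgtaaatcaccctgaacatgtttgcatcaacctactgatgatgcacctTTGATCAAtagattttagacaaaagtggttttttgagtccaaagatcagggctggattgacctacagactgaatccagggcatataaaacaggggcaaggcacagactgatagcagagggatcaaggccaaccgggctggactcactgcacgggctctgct
The longer pattern was in 0.399% of all 32851 promoters and in 8 of 196 liver promoters, 4.08%. The sequences are those of the reference strain, not of CAST/EiJ. Promoters of Tat, Apoa4, Igfbp2 and Arg1, also far above in CAST/EiJ, are not shown. A link between the pattern and these levels was not tested.

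The gene farthest below was Serpina1a. It was at 3.57 in CAST/EiJ, against 8.48 in BXD12/TyJ, 7.999 in BXA8/PgnJ, 8.69 in BXD42/TyJ, 8.60 in AXB13/PgnJ, 8.42 in BXA16/PgnJ and 8.10 in AXB10/PgnJ, although Serpina1b was at 11.81 in CAST/EiJ and 9.91 to 10.58 in the same 6 arrays. Serpina1c was at 9.99 in CAST/EiJ, against 10.90 to 11.74. The copies are alike in the reference genome, as their promoters show, with capitals for the bases that differ in an alignment with free ends.
Serpina1a (chr12:103863570-103863869, minus strand): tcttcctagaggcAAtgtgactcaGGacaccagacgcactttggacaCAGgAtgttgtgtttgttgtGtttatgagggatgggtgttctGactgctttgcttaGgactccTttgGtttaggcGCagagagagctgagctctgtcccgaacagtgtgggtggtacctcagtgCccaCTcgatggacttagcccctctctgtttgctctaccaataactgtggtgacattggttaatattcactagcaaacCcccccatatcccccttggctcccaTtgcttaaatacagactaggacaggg
Serpina1b (chr12:103738140-103738439, minus strand): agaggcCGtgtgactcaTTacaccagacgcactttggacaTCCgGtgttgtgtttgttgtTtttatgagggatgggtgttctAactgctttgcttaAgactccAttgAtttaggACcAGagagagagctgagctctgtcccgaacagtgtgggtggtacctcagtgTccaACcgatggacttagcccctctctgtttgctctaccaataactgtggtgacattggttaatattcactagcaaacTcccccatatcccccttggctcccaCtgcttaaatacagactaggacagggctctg
Over 295 aligned positions, 273 were identical (92.5%), 20 were mismatches and 2 gaps. Cyp3a11 was also lower in CAST/EiJ, at 7.39, than in the upper recombinant arrays, at 9.05 to 10.22. It was named after its values were seen. Ugt3a2, a conjugating enzyme, was at 3.22 in CAST/EiJ and up to 5.17 in the recombinant arrays, and Mbl2, a lectin of complement, at 4.15 and up to 6.82. Ghr, the growth hormone receptor, Steap4, a metalloreductase, and Fmo5, a flavin monooxygenase, had medians of 9.45, 6.98 and 4.40 in arrays without liver transcripts, so the hearts held these transcripts without liver transcripts too.

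**Figure D4:**
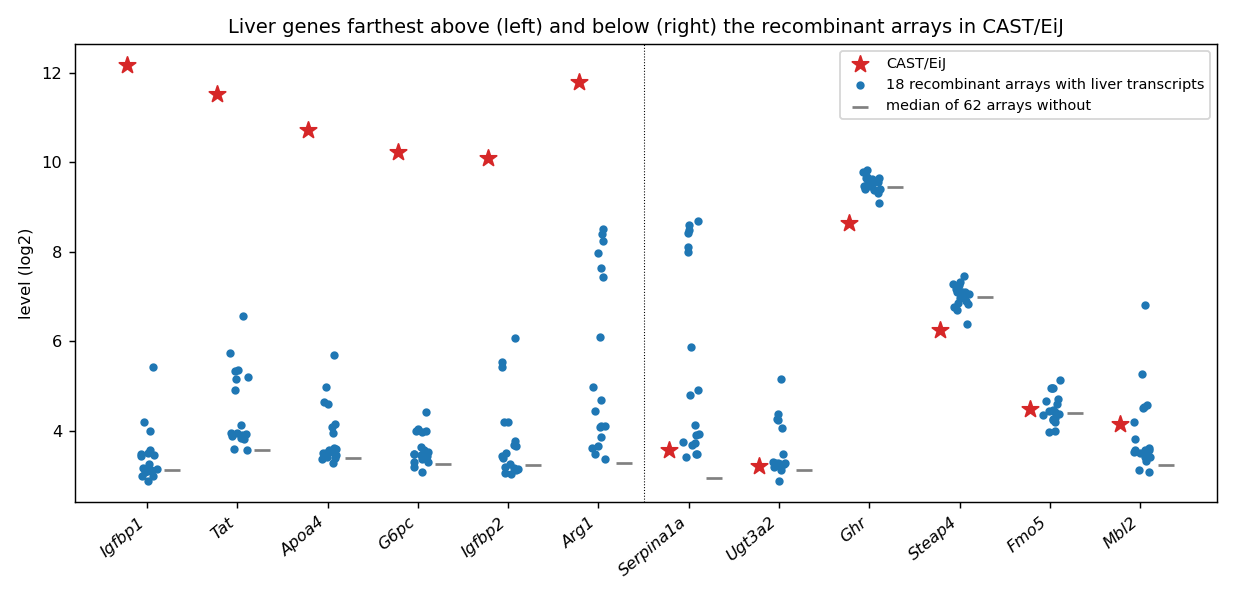
Levels (log2, no subtraction) of the 6 liver genes farthest above and the 6 farthest below the recombinant arrays in CAST/EiJ after scaling, for CAST/EiJ (star), the 18 recombinant arrays with liver transcripts (dots) and the median of the 62 arrays without (bar). CAST/EiJ lies above every dot in the first 6 genes and near the lowest dots for Serpina1a.

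RIIIS/J, the classical inbred strain of the class, had Alb at 8.88 and 38 liver genes above the highest array without, beside 46 in BXD13/TyJ and 39 in BXA14/PgnJ, whose Alb was at 8.88 and 8.75. Its Apoa1 was at 6.97 and its Apoa2 at 8.30, beside 7.49 and 8.11 in BXD13/TyJ. Its Cyp3a11 was at 3.95, against 6.32 in BXD13/TyJ.

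The upper recombinant arrays also differed among themselves. Of 86 liver genes with a mean above 5 in them, the median SD over the 6 arrays after subtraction was 0.40, and it was highest for Cyp2d9, a testosterone-oxidising enzyme of male mouse liver, at 1.68. Cyp2d9 was at 3.14 in BXD12/TyJ, 7.05 in BXA8/PgnJ, 7.91 in BXD42/TyJ, 6.68 in AXB13/PgnJ, 6.48 in BXA16/PgnJ and 5.63 in AXB10/PgnJ, and at 9.46 in CAST/EiJ, and the highest array without was at 3.64. BXD12/TyJ, with the highest Alb of the 6, was thus at the level of hearts without liver transcripts for this gene. C9 followed with an SD of 1.19, at 4.31 in BXD12/TyJ and 5.63 to 7.15 in the other 5, and Akr1c6, a hydroxysteroid dehydrogenase, had an SD of 1.05, at 8.03 in BXD12/TyJ and 4.93 to 6.89 in the other 5.

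After these values were seen, genes known to differ between male and female mouse liver were listed. Of 8 genes known as male-biased, Cyp2d9, Cyp4a12a and Cyp7b1 were lower in BXD12/TyJ than in each of the other 5 upper recombinant arrays. Cyp4a12a, an arachidonic acid hydroxylase, was at 3.01 in BXD12/TyJ, against 3.87 to 5.01 in the other 5, and Cyp7b1, an oxysterol hydroxylase, at 3.23 in BXD12/TyJ, against 3.55 to 4.27 in the other 5. Mup3 was the lowest of the 6 as well, at 8.38 in BXD12/TyJ, against 8.60 to 9.70 in the other 5, while Ugt2b1 was at 3.89 in BXD12/TyJ, against 3.68 to 4.42 in the other 5. Slco1a1, Hsd3b5 and Elovl3 were near the floor, at 3.63 or less in all 6. Of 6 genes known as female-biased, 4 were highest there: Cyp3a41a, a steroid-oxidising enzyme, at 8.46 in BXD12/TyJ, against 3.06 to 3.26 in the other 5, Cyp2b9 at 6.08 in BXD12/TyJ, against 3.09 to 3.40 in the other 5, Cyp2b13 at 4.94 in BXD12/TyJ, against 3.24 to 3.50 in the other 5 and Sult3a1, a sulfotransferase, at 4.99 in BXD12/TyJ, against 2.97 to 3.18 in the other 5. Cyp3a16 and Cyp3a44 were at the floor in all 6. These Cyp3a and Cyp2b genes have near-identical copies, so the copy is uncertain.

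In CAST/EiJ most of the listed male-biased genes were high. Cyp2d9 was at 9.46, Cyp7b1 at 8.67, Cyp4a12a at 7.18, Mup3 at 10.81, Ugt2b1 at 6.64 and Slco1a1 at 4.48, each above the upper recombinant arrays. Hsd3b5 at 3.44 and Elovl3 at 3.55 were within the range of those arrays. Of the female-biased genes, Sult3a1 at 9.24 was above them too, and Cyp3a41a at 5.82 was above all but BXD12/TyJ. Cyp2b9 at 3.33, Cyp2b13 at 3.30, Cyp3a16 at 2.98 and Cyp3a44 at 3.32 were near the floor. Among Y-linked genes in BXD12/TyJ, Eif2s3y was at 7.19, rank 8 of 99, Kdm5d at 4.16, rank 15, and Uty at 4.04, rank 96, against medians of 6.75, 3.94 and 4.45 in the class without. The brightest probe set of Xist, the transcript of the inactive X chromosome, was at 4.40 in BXD12/TyJ, the highest of 99, against a next highest of 3.995. The other probe sets of Xist were at 3.47, rank 2, and 3.11, rank 85. All mice are labelled male, and where these transcripts came from was not tested.

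**Figure D5:**
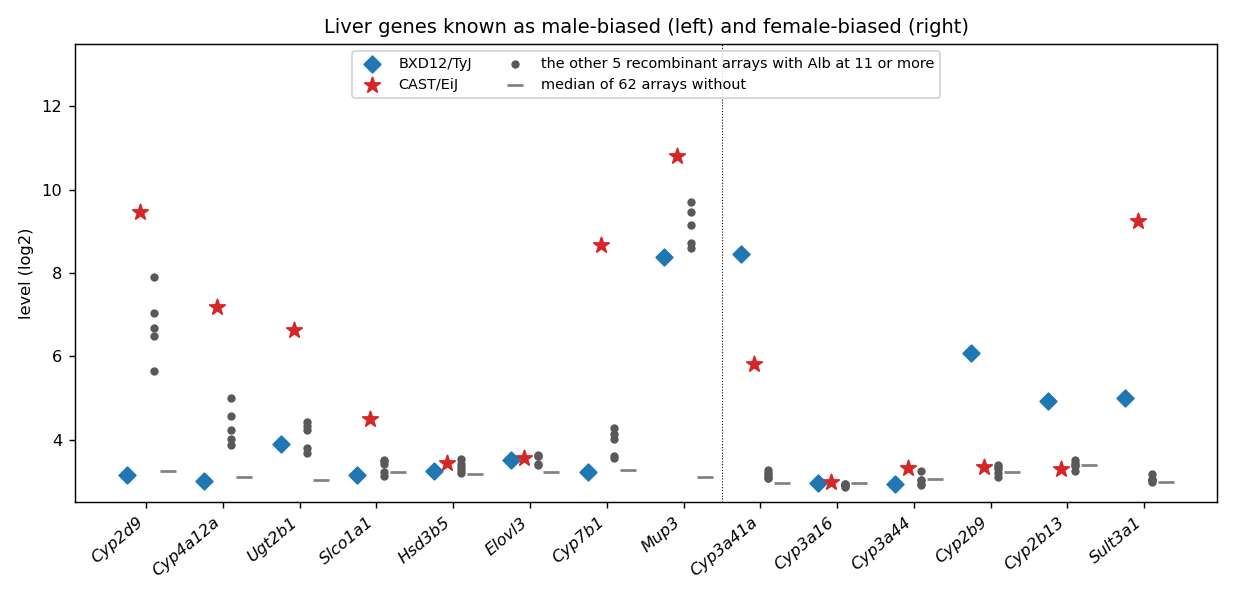
Levels (log2) of genes known as male-biased (left of the dotted line) and female-biased (right) in liver, for BXD12/TyJ (diamond), CAST/EiJ (star), the other 5 upper recombinant arrays (dots) and the median of the 62 arrays without liver transcripts (bar). BXD12/TyJ is at the bar for Cyp2d9 and Cyp4a12a and far above it for Cyp3a41a and Cyp2b9.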

How the data were processed

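Heart RNA of 99 strains was measured on 1 Affymetrix HT_MG-430A array each. The deposited values are on a log2 scale, made by the authors with GCOS and RMA per the submitters' processing notes; versions are not given in the sources used here, and array medians were 3.97 to 4.07. All 99 columns were mapped to a sample. Of 22416 probe sets, 89 are controls, 17783 have 1 gene symbol, 284 several and 4349 none; each of 11725 genes was read from its brightest probe set, with no filter. The number of arrays limits the precision.

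Classes were set by the Alb level, and the members and lists were chosen with earlier results of these data known. The classes were compared with limma 3.58.1 (R 4.3.3; lmFit, eBayes with a trend), with Benjamini-Hochberg adjustment over 11724 genes other than Alb. P-values are printed only for genes outside the hepatocyte lists; for hepatocyte genes, selected together with Alb, counts past the threshold are descriptive. In simulated arrays, both classes were drawn independently with each gene's mean and SD in the class without. Of genes shifted by 0.25, 0.5 and 1, 80.6%, 97.0% and 100% were called, and 13 of 11524 unshifted genes. Hepatocyte genes spread more widely in the class with liver transcripts, and some strains are closely related, so these rates may not hold for the measured arrays. The text names up to 6 genes of each liver list, the called and largest genes of other lists, the 20 largest called genes outside the lists in each direction, and up to 6 genes on each side for CAST/EiJ; liver genes beyond these, the examples of other liver cells and the sex-biased genes were chosen after their values were seen. Alternatives changed the Alb levels, arrays, panel block, filter, covariates and spread model. Tables and figures used Python 3.11.15, pandas 2.3.3, scipy 1.17.1 and matplotlib 3.10.9.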

Additional observations from a re-analysis of the deposited data

Results flagged for a closer look

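Within each panel's arrays with liver transcripts, 54 groups of 4 to 10 arrays (18 values in 3 panels) were examined for an array far from the others, and 6 stood out. Chance alone marks about 1 in 20 groups, but the sex-biased genes among these values were listed after BXD12/TyJ was seen to stand apart, so the number is not to be read against that rate. In the 6 BXD arrays, Cyp2d9 was highest in BXD42/TyJ at 7.91, Cyp3a41a in BXD12/TyJ at 8.46, Cyp2b9 in BXD12/TyJ at 6.08 and Sult3a1 in BXD12/TyJ at 4.99. In the 5 BXA arrays, Cyp2b9 was highest in BXA13/PgnJ at 3.69, which is near the floor. In the 5 AXB arrays, Tnni3 was lowest in AXB19/PgnJ at 12.82.

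The 17 arrays with Alb between the levels belong to neither class in the comparison of the report. Their mean over the liver plasma protein list was 4.02 in the median array, against 3.90 in the median array without liver transcripts, and the ranges overlapped.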

How the results depend on the processing

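The comparison of the classes called 244 genes. With only genes whose mean was above the 40th percentile, and so with fewer genes tested, it called 100 (82 higher, 18 lower). Without the 7 arrays of Alb 11 or more, which are the arrays with the most liver transcripts, it called 82 (77 higher, 5 lower). The cause of neither change was tested. The other settings gave 167 to 331, the highest with Alb at 9 or more against under 6; Alb at 7 or more against under 5, which takes in 6 of the arrays between the levels, gave 187. Leaving out 1 array with liver transcripts in turn gave 215 to 259 calls and a median difference of the plasma protein genes of 0.97 to 1.19. That median was 0.31 without the arrays of Alb 11 or more and 1.92 with the filter. For the 42 named genes with a call, 1457 values were compared: 1212 kept direction and call, 244 kept direction and lost the call, and 1 reversed, Slc38a4 at -0.0492 without the arrays of Alb 11 or more; the cause was not tested. Of the 20 named lower genes, none was called under every setting, and 9 were lost without CAST/EiJ. No paired analysis was possible because the labels give no shared replicate numbers. Signal near the floor of 3 limits what dim genes can show.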
